A study of Rattus norvegicus with 2 samples.

Results

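Transcripts of 9 genes of transforming growth factor-β (TGF-β) signaling were counted in single cultured cells of the neonatal rat heart. Signaling itself was not measured in these libraries. The genes are the ligand genes *Tgfb1*, *Tgfb2*, *Tgfb3* and *Inhba*, the receptor genes *Tgfbr1*, *Tgfbr2* and *Tgfbr3*, and the SMAD genes *Smad3* and *Smad7*. They were taken by symbol, 9 of the 25399 genes in the count table, for their place in the pathway, and all 9 were found. Cardiac cells of Sprague-Dawley rats aged 1 to 3 days, both sexes pooled, were enriched on a Percoll gradient for intrinsic cardiac adrenergic (ICA) cells, heart cells that make catecholamines, and were cultured with saline (control) or with lipopolysaccharide (LPS), a component of the bacterial outer membrane, at 1 µg/ml for 2 h. No genetic change was made, and both groups came from pooled animals through the same digestion and gradient, whose low-density band holds mostly heart cells other than ventricular myocytes. Each condition gave 1 library of the 10X Genomics 3′ kind, which leaves nothing to replicate a comparison, and p-values are not given. The control library held 11531 cells and 152624585 unique molecular identifiers (UMIs), and the LPS library 12689 cells and 127580475 UMIs, with medians of 12479 and 9432 UMIs per cell.

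TGF-β ligands are secreted in a latent complex held by the matrix and are freed before they can signal. The free dimer joins a type II receptor (encoded by *Tgfbr2*) with a type I receptor (encoded by *Tgfbr1*), which phosphorylates SMAD2 and SMAD3, and these enter the nucleus with SMAD4, while SMAD7, itself a product of the pathway, holds the receptors back. In the heart the pathway is known for turning fibroblasts into matrix-making myofibroblasts and for restraining inflammation.

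Levels are given as CPM: all UMIs of a gene in a cluster of a library, per 1000000 UMIs of that class. A UMI counts 1 molecule at its 3′ end whatever the transcript's length, so levels of different genes can be set side by side, as far as their 3′ ends were captured alike. Intervals are at 95% and cover counting error only. The clusters are those of the authors' cell table, which places 24210 of the 24220 cells in 11 clusters. Markers fitted most of the names: all 8 macrophage markers were highest in cluster 6 (Macrophages), and 4 cycling-cell markers were highest in cluster 1, which is named Fibroblast like clusters 0 and 7. The 5 endothelial markers in the table were highest in clusters 4 and 5 (Endothelial). The samples are labelled as ICA cells, yet the fibroblasts of cluster 0 alone made up 57.2% of control and 55.4% of LPS cells. All 7 cardiomyocyte markers were highest in cluster 3 (ICA and Cardiomyocyte), where mitochondrial genes took a median of 17.9% of a control cell's UMIs and 17.3% of an LPS cell's. Cluster 2 has no name from the authors, and 5 of 6 markers of mural cells, which wrap small vessels, were highest in it, so it is called mural-like here. Cluster 8, also unnamed, had 4 of 5 mesothelial markers at their highest. The unnamed cluster 9 held the highest levels of 5 of the 7 fibroblast markers together with cardiomyocyte markers, and stays unnamed. The libraries shared 194 barcodes (1.68% of the control and 1.53% of the LPS barcodes). Where 1 of the 9 genes had at least 50 UMIs over both libraries, leaving those cells out moved no level or ratio beyond its interval. The other levels and ratios given here were not checked in this way.

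The promoters of the 3 genes that differed at least 2-fold between the libraries in the main fibroblast cluster are shown first, as the stretch where their transcription begins: 250 bases before and 50 bases after the gene's start in RefSeq (build GRCr8, read 5′ to 3′ on the gene's strand). All 9 genes were matched to RefSeq by symbol. The windows are chr6:111456897-111457196 (minus strand) for *Tgfb3*, chr17:53804459-53804758 (minus strand) for *Inhba* and chr8:124761420-124761719 (minus strand) for *Tgfbr2*. Capitals mark matches, on either strand, to 6 motifs: TGANTCA (AP-1), TGACGTCA (the cyclic AMP response element), the NF-κB site, GTCTAGAC and CAGACA (SMAD), and GGGCGG (the GC box).
Tgfb3: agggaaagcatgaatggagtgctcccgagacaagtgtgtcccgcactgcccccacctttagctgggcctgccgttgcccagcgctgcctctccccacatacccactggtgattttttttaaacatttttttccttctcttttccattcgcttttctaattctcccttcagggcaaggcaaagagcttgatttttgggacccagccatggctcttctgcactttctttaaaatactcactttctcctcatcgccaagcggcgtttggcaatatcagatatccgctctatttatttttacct
Inhba: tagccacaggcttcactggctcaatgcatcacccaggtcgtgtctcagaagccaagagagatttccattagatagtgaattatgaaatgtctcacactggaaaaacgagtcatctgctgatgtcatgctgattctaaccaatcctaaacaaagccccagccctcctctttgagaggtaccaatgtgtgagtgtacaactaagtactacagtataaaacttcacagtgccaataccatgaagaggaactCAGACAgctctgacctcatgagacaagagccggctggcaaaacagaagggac
Tgfbr2: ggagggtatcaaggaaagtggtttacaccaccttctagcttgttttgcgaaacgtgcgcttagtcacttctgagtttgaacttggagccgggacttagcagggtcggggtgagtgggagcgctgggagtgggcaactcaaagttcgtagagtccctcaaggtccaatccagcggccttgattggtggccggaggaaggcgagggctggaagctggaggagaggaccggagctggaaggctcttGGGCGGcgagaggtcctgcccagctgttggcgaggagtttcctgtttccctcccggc
The *Tgfb3* window held no match to any of the 6. The *Inhba* window held CAGACA, whose first base lies at -2 from the start and which is found in 21.1% of the 33469 rat promoters of this length. The *Tgfbr2* window held GGGCGG from position -7, a motif in 33.1% of promoters. GGGCGG was also found in the windows of *Tgfbr1* (3 matches), *Smad7* (2 matches), *Tgfbr3* and *Smad3* (1 match each), and the windows of *Tgfb1* and *Tgfb2* held none of the motifs. The AP-1 and NF-κB patterns used here are present in 7.33% and 1.53% of all promoters and in none of the 9. Other forms of these sites were not searched. These matches describe the letters of the windows and were not related to the levels.

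*Tgfb3*, *Tgfbr2* and *Inhba* were the members with the largest differences between the libraries. A member was compared in a cluster where it had at least 50 UMIs over both libraries, which left 61 of 99 member-cluster pairs. Of these, 3 were at least 2-fold higher in LPS, all of them *Inhba*, and 10 were at least 2-fold lower: *Tgfb3* in 5 clusters, *Tgfbr2* in 3, and *Tgfbr1* and *Tgfbr3* in macrophages. Among all genes of cluster 0 that met the same minimum, 3.44% were at least 2-fold higher and 9.1% at least 2-fold lower. In the other clusters the shares higher and lower were 3.23% and 5.09% in cluster 1, 2.86% and 4.28% in cluster 2, 1.7% and 1.69% in cluster 3, 2.65% and 4.08% in cluster 4, 4.24% and 4.56% in cluster 5, and 4.82% and 12.3% in cluster 6. They were 4.7% and 3.45% in cluster 7, 2.48% and 1.67% in cluster 8, 2.69% and 2.81% in cluster 9, and 3.52% and 0.971% in cluster 10. The median gene shifted by -0.13 on the log2 scale in cluster 0, by -0.12 in cluster 2 and by -0.31 in cluster 6, and by less than 0.1 in the other clusters. The counting interval of the ratio lay above 1 in 15 pairs and below 1 in 18, and 28 intervals included 1. Scaled to the median gene of the cluster, 32 of those 33 pairs still had intervals that exclude 1, and none of the 33 changed sign under the 8 alternatives.

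**Figure D1:**
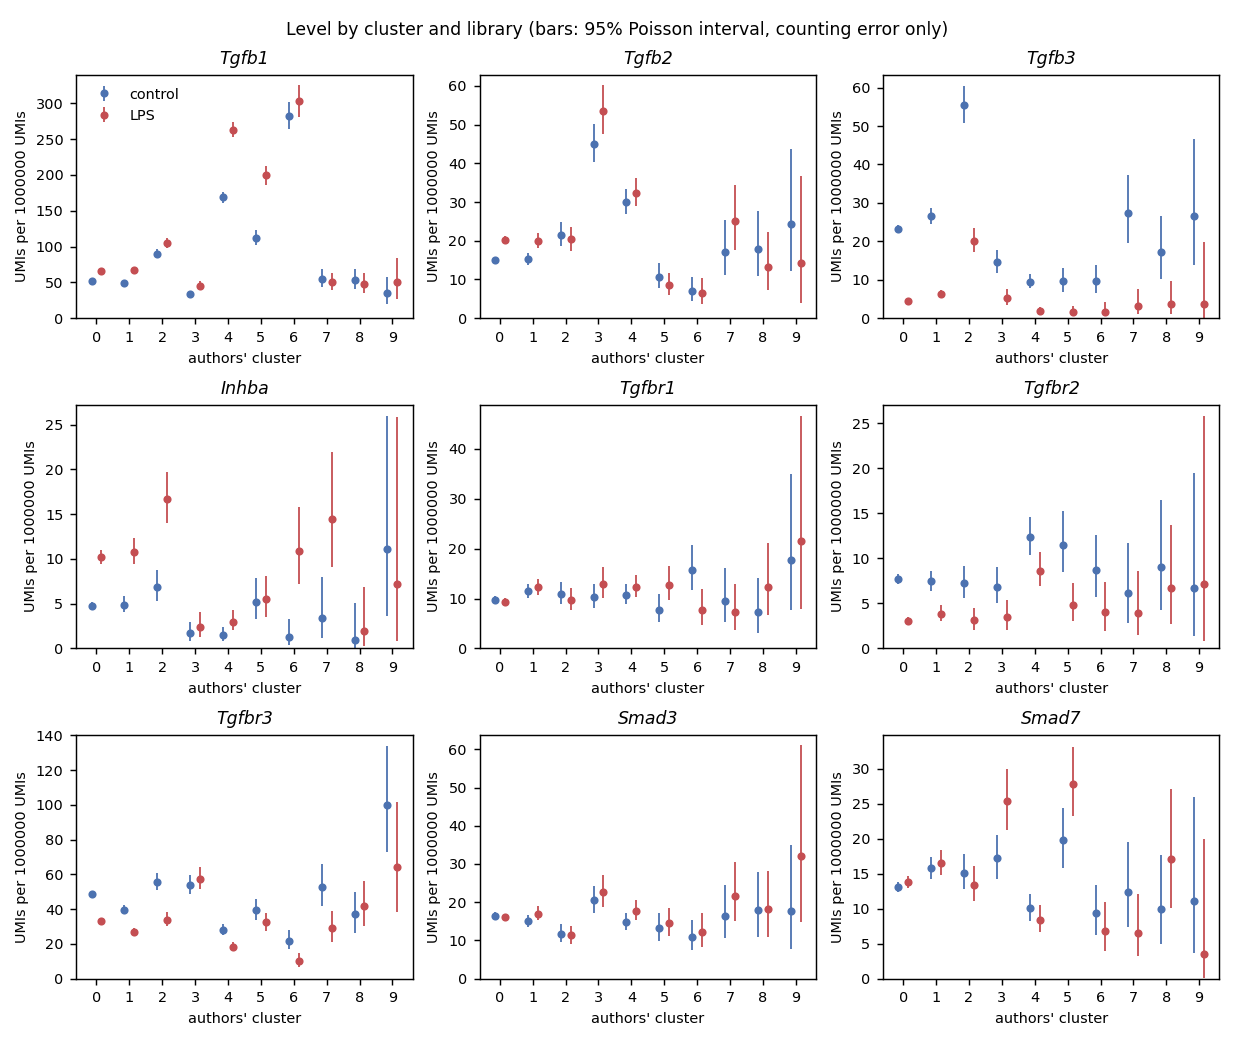
Levels of the 9 genes in UMIs per 1000000 UMIs (linear axes from 0) in clusters 0 to 9 of the control (blue) and LPS (red) libraries, with bars for the 95% Poisson interval, which covers counting error only. *Tgfb3* lies lower in LPS in each cluster drawn, *Tgfb1* is highest in cluster 6 and *Tgfb2* in cluster 3, and the small clusters 7 to 9 have the widest bars.

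*Tgfb1* encodes the most widely expressed TGF-β ligand, and it was the most abundant of the 4 ligand transcripts in clusters 0, 1, 2, 4, 5 and 6. Macrophages held the highest level, 283 CPM in control and 303 CPM in LPS, with a ratio of LPS to control of 1.07 (0.969 to 1.18). Scaled to the median gene of cluster 6, that ratio was 1.32 (1.20 to 1.46), so whether macrophage *Tgfb1* differed beyond counting error depended on the scaling. Among clusters 0 to 9, the endothelial clusters came next, while the small cluster 10 stood at 226 CPM in LPS from 36 UMIs in 26 cells, between clusters 4 and 5 and not beyond counting error from them. In cluster 4 the level was 169 CPM in control and 263 CPM in LPS, a ratio of 1.56 (1.47 to 1.66), and in cluster 5 it was 112 and 199 CPM, a ratio of 1.78 (1.59 to 1.99). After each cell was thinned to 3000 UMIs, 41.6% of control and 55.0% of LPS cells in cluster 4 had a *Tgfb1* UMI (79.9% and 84.9% unthinned), and in cluster 5 the shares were 26.3% and 48.2% (62.6% and 78.1% unthinned). Leaving cluster 10 aside, macrophages, cluster 4 and cluster 5 followed each other in that order in both libraries, with counting intervals that did not overlap, and the macrophage level was 1.68 times that of cluster 4 in control and 1.15 times in LPS.

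*Tgfb1* was lower in the other cells. Cluster 0 fibroblasts had 52.1 and 66.1 CPM, a ratio of 1.27 (1.22 to 1.32), and cluster 1 had 49.0 and 67.9 CPM, a ratio of 1.39 (1.28 to 1.5). The mural-like cluster 2 had 90.0 and 105 CPM, with a ratio of 1.17 (1.06 to 1.29), and cluster 3 had the lowest level in both libraries, 33.9 and 45.2 CPM, with a ratio of 1.33 (1.11 to 1.60). From cluster 7 downward in the order of either library, which ends with cluster 3, no neighbouring clusters differed beyond counting error. In LPS, cluster 8 stood at 1.05 times (0.761 to 1.43) the level of cluster 3. Mitochondrial UMIs are part of the CPM denominator. They took a median of 17.3% per LPS cell in cluster 3 and 3.06% in cluster 8, so the last place of cluster 3 is not secure. Because cluster 0 is so large, it still supplied 4718 of 10374 *Tgfb1* UMIs in control and 4874 of 11772 in LPS, against 881 and 752 from macrophages. *Tgfb1* was therefore higher in LPS in clusters 0 to 5, by less than 2-fold in each. Under the alternatives, the log2 ratio of *Tgfb1* in cluster 5 reached 1.15, which is past 2-fold. In the fibroblasts of cluster 7 the ratio of *Tgfb1* was 0.924 (0.667 to 1.28).

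*Tgfb2* encodes a ligand known for its part in heart valve and outflow development, and it was the most abundant ligand transcript in cluster 3 (ICA and Cardiomyocyte). Cluster 3 had 45.1 CPM in control and 53.6 CPM in LPS, a ratio of 1.19 (1.012 to 1.399), and no other cluster reached these levels in either library. This was 3.00 times (2.64 to 3.39) the level of cluster 0 in control and 2.67 times (2.35 to 3.03) in LPS, whereas the 7 fibroblast markers ran at 18.6% to 41.9% of their cluster 0 level in the same control cells. Endothelial cluster 4 followed with 29.9 and 32.4 CPM, a ratio of 1.08 (0.924 to 1.26). In cluster 0 the level was 15.04 and 20.1 CPM, a ratio of 1.34 (1.24 to 1.44), and in cluster 1 it was 15.3 and 20.01 CPM, a ratio of 1.31 (1.13 to 1.51). The fibroblast difference was thus similar in size to that of *Tgfb1* there. Macrophages had 22 and 16 UMIs only, 7.06 and 6.44 CPM, and in clusters 2, 5 and 7 the intervals of the ratio included 1.

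*Tgfb3* encodes the ligand that is typical of mesenchymal cells, and it was lower in LPS in all 11 clusters. In cluster 0 there were 2105 UMIs (23.3 CPM, 22.3 to 24.3) in control and 333 UMIs (4.51 CPM, 4.04 to 5.03) in LPS, a ratio of 0.194 (0.172 to 0.218) and a log2 ratio of -2.37. Of all genes compared in that cluster, 0.759% had a log2 ratio this low or lower. After thinning, 6.58% (5.99 to 7.20) of the control fibroblasts and 1.30% (1.04 to 1.59) of the LPS fibroblasts had a *Tgfb3* UMI, and unthinned the shares were 23.8% and 4.37%. So fewer fibroblasts held a detected *Tgfb3* transcript at matched depth, too.

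The mural-like cluster 2 had the highest *Tgfb3* level of the larger clusters in both libraries, 55.4 CPM (519 UMIs) in control and 20.1 CPM (169 UMIs) in LPS, and its ratio of 0.363 (0.303 to 0.433) was above that of cluster 0. The level of cluster 2 was 2.38 times (2.16 to 2.62) that of cluster 0 in control and 4.46 times (3.68 to 5.38) in LPS, so the mural-like cells stood further apart from the fibroblasts in LPS. Cluster 1 had 26.6 and 6.21 CPM, a ratio of 0.233 (0.191 to 0.283). Cluster 3 had 14.6 and 5.29 CPM, from 103 and 29 UMIs, a ratio of 0.364 (0.232 to 0.554). Both are again lower in LPS by more than 2-fold.

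Endothelial cells and macrophages held little *Tgfb3*. Cluster 4 had 106 control and 18 LPS UMIs, 9.53 and 1.85 CPM, a ratio of 0.194 (0.111 to 0.322). Thinned to 3000 UMIs per cell, it was left with 6 of 723 control cells and 6 of 796 LPS cells with a *Tgfb3* UMI and a log2 ratio of -0.14, so at that depth the difference was not detectable. Clusters 5 and 6 had 41 and 30 UMIs in control and 7 and 4 UMIs in LPS, too few for the minimum of 50, with ratios of 0.159 (0.0603 to 0.359) and 0.167 (0.0428 to 0.474). Droplets carry free RNA from other cells: these 3 clusters held 41.0%, 41.5% and 41.4% of the control *Tgfb3* level of cluster 0, and their summed fibroblast markers stood at 27.9%, 25.9% and 32.8% of the cluster 0 sum. In LPS, the *Tgfb3* level of cluster 4 was again 41.0% (24.0 to 65.7) of that of cluster 0, and the summed fibroblast markers were at 21.8%. The part of free RNA in these small *Tgfb3* levels was not tested. In clusters 7 to 10 the ratio lay between 0.120 and 0.223, on 5 or fewer LPS UMIs each, and cluster 10 was the only one of the 11 whose interval included 1.

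**Figure D2:**
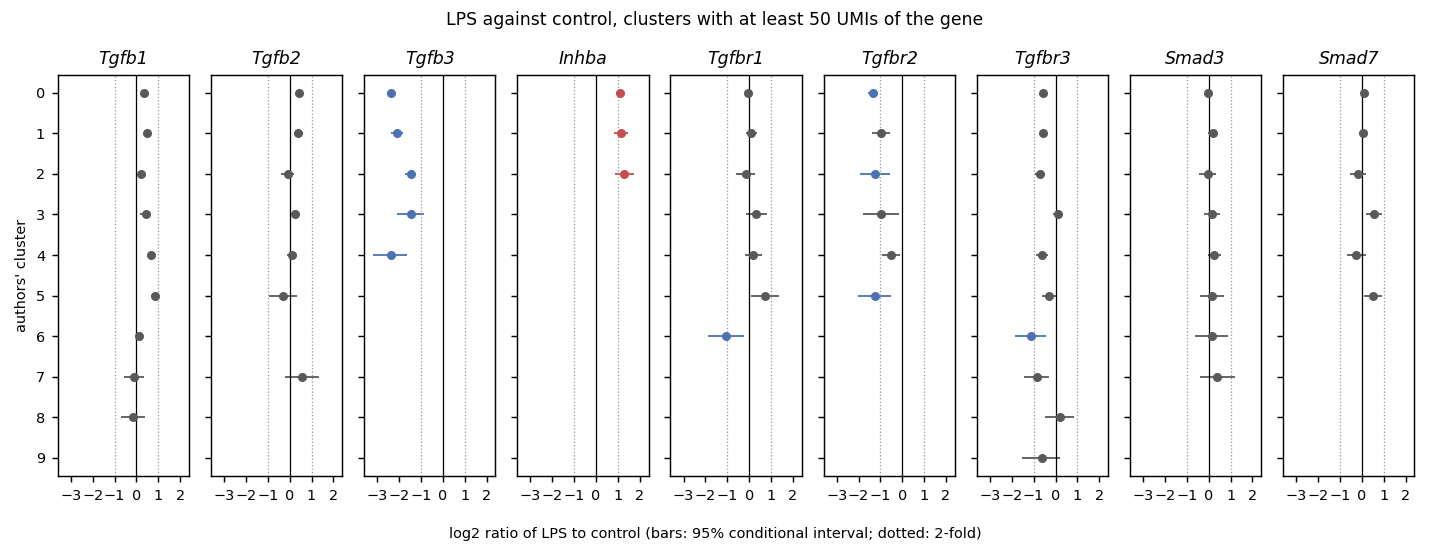
Log2 ratio of the LPS to the control level of each gene (x axis) in clusters 0 to 9 (y axis), for clusters with at least 50 UMIs of the gene, with 95% conditional intervals for counting error and dotted lines at 2-fold; blue and red points are at least 2-fold lower and higher. All 5 *Tgfb3* points lie below -1 and all 3 *Inhba* points above 1, while the 8 *Smad3* points have intervals across 0.

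The mix of the 3 TGF-β ligand transcripts differed between the libraries, while their summed level in the fibroblasts of cluster 0 was nearly the same in CPM. In cluster 0, *Tgfb1*, *Tgfb2* and *Tgfb3* together stood at 90.4 CPM in control and 90.7 CPM in LPS. *Tgfb3* made up 25.7% (24.8 to 26.7) of these UMIs in control and 4.98% (4.47 to 5.53) in LPS, *Tgfb1* 57.6% and 72.9%, and *Tgfb2* 16.6% and 22.2%. In CPM, the lower *Tgfb3* level was thus matched in size by higher *Tgfb1* and *Tgfb2* levels. This match depends on the scaling: the median gene of cluster 0 shifted by -0.13 on the log2 scale. Scaled to that gene, the LPS sum lies above the control sum. In the mural-like cluster 2 the *Tgfb3* share was 33.2% in control and 13.8% in LPS, with a lower sum in CPM, 167 and 146. The median gene of cluster 2 shifted by -0.12, so scaled to it these sums lie closer together. Cluster 3 was the only one of clusters 0 to 6 in which *Tgfb2* was the leading ligand, with 48.2% (44.3 to 52.1) in control and 51.5% (47.3 to 55.7) in LPS. In endothelial and macrophage clusters *Tgfb1* dominated: 81.0% and 88.5% in cluster 4, 84.7% and 95.2% in cluster 5, and 94.4% and 97.4% in cluster 6. Their sums were 208 and 298 CPM, 132 and 209 CPM, and 300 and 311 CPM.

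**Figure D3:**
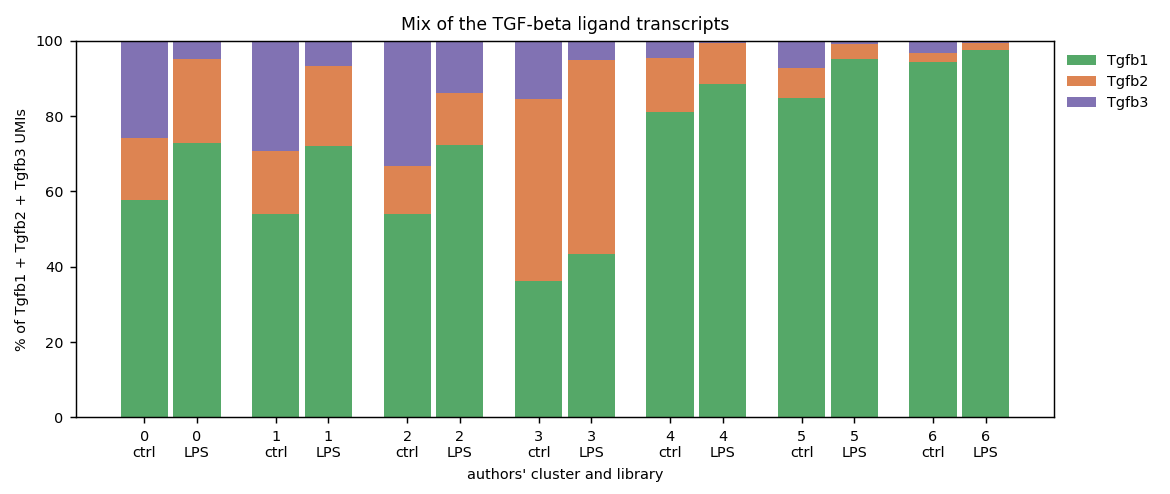
Share of *Tgfb1*, *Tgfb2* and *Tgfb3* UMIs (stacked bars from 0 to 100%) among the UMIs of these 3 ligand genes in clusters 0 to 6, control (ctrl) and LPS side by side. The *Tgfb3* block of cluster 0 is 25.7% in control and 4.98% in LPS, and *Tgfb2* is the largest block only in cluster 3.

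*Inhba* encodes the activin A subunit, a ligand of the TGF-β superfamily that signals through activin receptors to the same SMAD2 and SMAD3. In cluster 0 it had 431 UMIs (4.76 CPM) in control and 751 UMIs (10.2 CPM) in LPS, a ratio of 2.14 (1.90 to 2.41). Cluster 1 had 4.87 and 10.8 CPM, a ratio of 2.21 (1.76 to 2.79), and the mural-like cluster 2 had 6.83 and 16.7 CPM, a ratio of 2.44 (1.80 to 3.33). The 3 ratios overlap in their intervals. In cluster 0, 1.21% (0.962 to 1.51) of the thinned control cells and 2.92% (2.54 to 3.34) of the thinned LPS cells had an *Inhba* UMI (5.85% and 8.90% unthinned), so most of these fibroblasts showed none at either condition.

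Outside these clusters *Inhba* counts were small. Macrophages had 4 UMIs in control and 27 in LPS, 1.28 and 10.9 CPM, a ratio of 8.46 (2.95 to 33.3). At equal depth 1 of 281 control and 9 of 290 LPS macrophages had a UMI, against 4 of 836 and 4 of 926 cells in cluster 3, and unthinned shares were 1.42% and 5.84% in macrophages and 1.44% and 1.40% in cluster 3, at median depths of 8846, 6900, 7526 and 5269 UMIs. The LPS macrophage level was 107% (69.8 to 156) of that of LPS fibroblasts, while their summed fibroblast markers were at 27.7% of the cluster 0 sum. In control the level was 27.0% of that of cluster 0, against 32.8% for the fibroblast markers. Cluster 7 had 5 and 22 UMIs, a ratio of 4.23 (1.56 to 14.3), and endothelial cluster 4 had 16 and 29 UMIs, a ratio of 2.07 (1.09 to 4.08). All 3 stood below the minimum of 50 UMIs, and in cluster 5 the levels were 5.18 and 5.49 CPM. *Inhba* was thus higher in LPS in fibroblast and mural-like cells by about the same factor, and in macrophages on few counts.

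*Tgfbr2*, which encodes the type II receptor that binds the ligand first, was lower in LPS in each of the 6 clusters in which it was compared. Cluster 0 had 694 UMIs (7.67 CPM, 7.11 to 8.26) in control and 222 UMIs (3.01 CPM, 2.63 to 3.43) in LPS, a ratio of 0.392 (0.336 to 0.457), and 4.75% of all genes compared there had a ratio this low or lower. Cluster 2 had 7.26 and 3.10 CPM, a ratio of 0.426 (0.260 to 0.679), and endothelial cluster 5 had 11.5 and 4.83 CPM, a ratio of 0.419 (0.241 to 0.707). Ratios of cluster 1 (0.513, 0.388 to 0.674) and cluster 3 (0.511, 0.284 to 0.886) were just short of 2-fold. Endothelial cluster 4 had the smallest difference, 12.4 and 8.63 CPM, a ratio of 0.696 (0.524 to 0.919), and it stood above the fibroblasts in both libraries, at 1.62 times (1.34 to 1.94) their level in control and 2.87 times (2.2 to 3.70) in LPS. In cluster 0, a *Tgfbr2* UMI was found in 2.23% of control and 0.968% of LPS cells after thinning, and 10.1% and 3.07% before it. In macrophages the level rested on 27 and 10 UMIs, with a ratio of 0.464 (0.200 to 0.989).

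*Tgfbr1*, the type I receptor gene whose product carries the kinase for SMAD2 and SMAD3, showed no such difference. In cluster 0 it had 9.75 CPM in control and 9.31 CPM in LPS, a ratio of 0.956 (0.864 to 1.06), and intervals in clusters 1 to 4 also included 1. Fibroblasts of cluster 0 thus had 1.27 *Tgfbr1* UMIs for each *Tgfbr2* UMI in control and 3.09 in LPS, endothelial cluster 4 had 0.870 and 1.43, and macrophages had 1.81 and 1.90. Endothelial cluster 5 had 33 and 58 UMIs, a ratio of 1.64 (1.05 to 2.60). Macrophages had 49 and 19 *Tgfbr1* UMIs, 15.7 and 7.64 CPM, a ratio of 0.486 (0.270 to 0.840), but scaled to the median gene of cluster 6 the interval included 1. In neither library did neighbours in the order of clusters differ beyond counting error. Set against the cluster 0 level of the same library, control macrophages stood at 161% (119 to 215), control cluster 1 at 118% (103 to 135), and LPS clusters 1, 3, 4 and 5 at 131% to 139%, each with an interval above 100%.

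*Tgfbr3* encodes betaglycan, a co-receptor that presents the ligands, TGF-β2 above all, to the type II receptor, and it was the most abundant of the 3 receptor transcripts in clusters 0 to 9. Cluster 0 had 48.8 CPM in control and 32.9 CPM in LPS, a ratio of 0.675 (0.642 to 0.709). Cluster 1 had 39.6 and 27.0 CPM (0.680, 0.611 to 0.757), cluster 2 had 55.5 and 33.9 CPM (0.611, 0.527 to 0.707), and cluster 4 had 28.0 and 18.2 CPM (0.650, 0.538 to 0.785). Cluster 3 had 53.7 and 57.5 CPM and a ratio of 1.07 (0.919 to 1.25), whose interval does not overlap those of the 4 ratios just given. In endothelial cluster 5 the ratio was 0.817 (0.650 to 1.03), and that interval includes 1 and overlaps that of cluster 3. With the alternatives included, the log2 ratio ran from -0.31 to 0.50 in cluster 5 and from -0.65 to -0.21 in cluster 4. Macrophages had the lowest level among clusters 0 to 9, 21.8 and 10.1 CPM, from 68 and 25 UMIs, and a ratio of 0.461 (0.279 to 0.738), which was 0.570 (0.345 to 0.913) when scaled to the median gene of the cluster.

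Neither SMAD transcript passed 2-fold in any cluster compared. *Smad3*, the receptor-activated transcription factor, had 16.5 CPM in control and 16.1 CPM in LPS in cluster 0, a ratio of 0.974 (0.902 to 1.05). Its ratios in the 8 clusters compared lay between 0.963 and 1.32, and all 8 intervals included 1. Cluster 3 had the highest control level of *Smad3*, 20.5 CPM, but cluster 8, its neighbour in that order, did not differ from it beyond counting error. *Smad7*, the inhibitory SMAD, had 13.1 and 13.8 CPM in cluster 0, a ratio of 1.05 (0.967 to 1.15). It was higher in LPS in cluster 3, with 17.2 and 25.4 CPM and a ratio of 1.47 (1.15 to 1.89), and in endothelial cluster 5, with 19.8 and 27.9 CPM and a ratio of 1.41 (1.06 to 1.88). In endothelial cluster 4 it had 10.1 and 8.42 CPM, a ratio of 0.837 (0.622 to 1.12). Scaled to the median gene, *Smad7* in cluster 0 (1.15, 1.06 to 1.25) and *Smad3* in clusters 1 (1.19, 1.02 to 1.38) and 4 (1.27, 1.02 to 1.59) had intervals above 1.

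The study centers on ICA cells, which the authors place in cluster 3. Cells of that cluster with a UMI of *Dbh*, the gene of the enzyme that makes norepinephrine, numbered 156 in control and 121 in LPS. After thinning to 3000 UMIs, the share of cluster 3 with a *Dbh* UMI was 7.66% (5.95 to 9.67) in control and 7.02% (5.46 to 8.86) in LPS (18.7% and 13.0% unthinned), against 0.152% (0.0727 to 0.278) and 0.0997% (0.0401 to 0.205) in the fibroblasts of cluster 0 (0.727% and 0.284% unthinned), at median depths of 7526 and 5269 UMIs in cluster 3 and 12968 and 9822 UMIs in cluster 0. A single UMI does not show what type a cell is, and these cells need not be the ICA subcluster of the paper. The paper stains ICA cells for tyrosine hydroxylase protein and also measures its mRNA by RT-qPCR in co-cultures with cardiomyocytes. Its gene *Th* had no UMI in cluster 3 in either library. *Th* was scarce throughout: it had UMIs in clusters 0, 2 and 6 only, so its absence says little about cluster 3. *Dbh* and *Ddc*, the gene of dopa decarboxylase, were highest in cluster 3 in both libraries. The *Tgfb2* level of the cells with a *Dbh* UMI was 55.4 CPM (44.0 to 68.9) in control and 45.6 CPM (31.4 to 64.1) in LPS, a ratio of 0.823 (0.532 to 1.25), against 1.29 (1.08 to 1.55) in the other cells of the cluster. In the *Dbh* cells *Tgfb3* had 21 and 5 UMIs, a ratio of 0.481 (0.142 to 1.31). *Tgfbr2* had 14 and 1, a ratio of 0.144 (0.00341 to 0.949), and *Tgfbr3* 66 and 49, a ratio of 1.5 (1.02 to 2.2). The levels of the whole cluster, which includes the *Dbh* cells, lay within the intervals of those cells for each of the 18 pairs of gene and library. Some of these intervals rest on 1 or 2 UMIs, so this does not show the *Dbh* cells to be like the rest. Set against the other cells of the cluster, only *Tgfb2* in control had a ratio whose interval excluded 1, 1.31 (1.003 to 1.69). The *Dbh* cells were deeper, with medians of 8200 and 5379 UMIs against 7526 and 5269 in the whole cluster.

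Other genes of the pathway, taken from lists of 45 genes of which 44 are in the table (*Itgb5* is not), gave a similar picture of unequal differences. In cluster 0, 6 of 44 were at least 2-fold higher and 7 at least 2-fold lower, against 3.44% and 9.1% of all genes there. Their median log2 ratio was -0.25, against -0.13 for all genes compared.

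Of the 10 genes of ligand latency and activation found in the table, none was at least 2-fold higher in cluster 0 and 2 were lower, against 3.44% and 9.1% of all genes there. These 2 were *Lrrc32* and *Nrros*. The interval lay below 1 for 8 of the 10 and above 1 for none, and their median log2 ratio was -0.30, against -0.13 for all genes compared. *Lrrc32*, which encodes GARP, a surface anchor of latent TGF-β, had 50.7 CPM in control and 22.3 CPM in LPS in cluster 0, a ratio of 0.440 (0.416 to 0.466). In endothelial cluster 5 it had 80.2 and 13.4 CPM, a ratio of 0.167 (0.125 to 0.220), but in cluster 2 the ratio was 0.828 (0.744 to 0.921). *Nrros*, the anchor of the myeloid lineage, had 64.9 CPM in control macrophages, its highest level in that library, and 22.1 CPM in LPS macrophages, a ratio of 0.341 (0.248 to 0.462). *Thbs1*, which encodes thrombospondin-1, an activator of latent TGF-β, was at least 2-fold lower in 4 of 6 clusters, with ratios of 0.369 to 0.592 over the 6. *Furin*, the protease that cleaves the ligand precursors, was at least 2-fold lower in macrophages only, with 71.3 and 31.0 CPM and a ratio of 0.435 (0.331 to 0.566). That log2 ratio was -1.20, while the median gene of cluster 6 shifted by -0.31. Scaled to the median gene, *Furin* was short of 2-fold. *Ltbp4*, which binds latent TGF-β to the matrix and had the most UMIs of this list, had a ratio of 0.937 (0.907 to 0.969) in cluster 0.

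On the activin side, 3 of 7 genes were at least 2-fold higher in cluster 0 and none lower, against 3.44% and 9.1% of all genes there. The list was mixed: another 3 genes had intervals below 1. Its median log2 ratio was -0.26, against -0.13 for all genes compared. *Acvr1b*, the type I activin receptor gene, had 6.12 and 17.3 CPM, a ratio of 2.83 (2.56 to 3.13), and was at least 2-fold higher in 5 of 7 clusters. *Fst* encodes follistatin, which binds and blocks activin, and it had 15.4 and 34.0 CPM in cluster 0, a ratio of 2.21 (2.07 to 2.36), and was at least 2-fold higher in 5 of 7 clusters. *Inhbb*, the activin B subunit gene, had 1.61 and 3.72 CPM in cluster 0, a ratio of 2.3 (1.88 to 2.84), but in endothelial cluster 4, where its level was far higher, 29.0 and 34.0 CPM, the ratio was 1.17 (1.00 to 1.37). The activin ligand *Inhba*, the type I receptor *Acvr1b* and the antagonist *Fst* were at least 2-fold higher in LPS in the fibroblasts of cluster 0. The activin side was not higher as a whole, given the 3 listed genes with intervals below 1 there.

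Among co-receptors and decoys, *Bambi*, a pseudoreceptor without a kinase that dampens TGF-β signaling, was lower by at least 2-fold in all 9 clusters in which it was compared. Cluster 0 had 7824 UMIs (86.5 CPM) in control and 1378 UMIs (18.7 CPM) in LPS, a ratio of 0.216 (0.204 to 0.229). *Eng*, the endothelial co-receptor endoglin, was highest in endothelial cluster 4, 609 and 522 CPM, with a ratio of 0.856 (0.825 to 0.888). Among the SMAD regulators, *Tgif1*, a corepressor that binds SMAD2 and SMAD3, was at least 2-fold higher in 7 of 9 clusters, with 47.7 and 125 CPM in cluster 0 and a ratio of 2.61 (2.52 to 2.71). The related corepressor genes *Ski* and *Skil* went opposite ways in cluster 0 on small counts: *Skil* had 124 and 308 UMIs, a ratio of 3.05 (2.47 to 3.78), and *Ski* 127 and 44 UMIs, a ratio of 0.425 (0.295 to 0.603).

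Of the 10 textbook target genes of TGF-β, 1 was at least 2-fold higher in cluster 0 and 3 were at least 2-fold lower. Among all genes there the shares were 3.44% and 9.1%. *Snai2*, the gene of a transcription factor of mesenchymal cells, had 59.7 and 26.7 CPM in cluster 0, a ratio of 0.447 (0.424 to 0.471), and was at least 2-fold lower in 7 of 8 clusters. *Ctgf*, a matricellular growth factor gene, was highest in the mural-like cluster 2, with 300 and 147 CPM and a ratio of 0.489 (0.457 to 0.523), and had a ratio of 0.448 (0.423 to 0.474) in cluster 0 but 1.13 (0.961 to 1.33) in cluster 3. *Tgfbi*, a matrix protein gene named for its response to TGF-β, had 13.1 and 4.83 CPM in cluster 0, a ratio of 0.370 (0.327 to 0.416), and in cluster 3 its level was 101 and 99.4 CPM with a ratio of 0.989 (0.883 to 1.11). *Snai1* passed 2-fold in macrophages only, with a ratio of 0.392 (0.224 to 0.656), and *Col1a1*, which encodes a chain of type I collagen and had the most UMIs of the list, had a ratio of 0.842 (0.838 to 0.846) in cluster 0. These lists were chosen with other results of these libraries known.

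**Figure D4:**
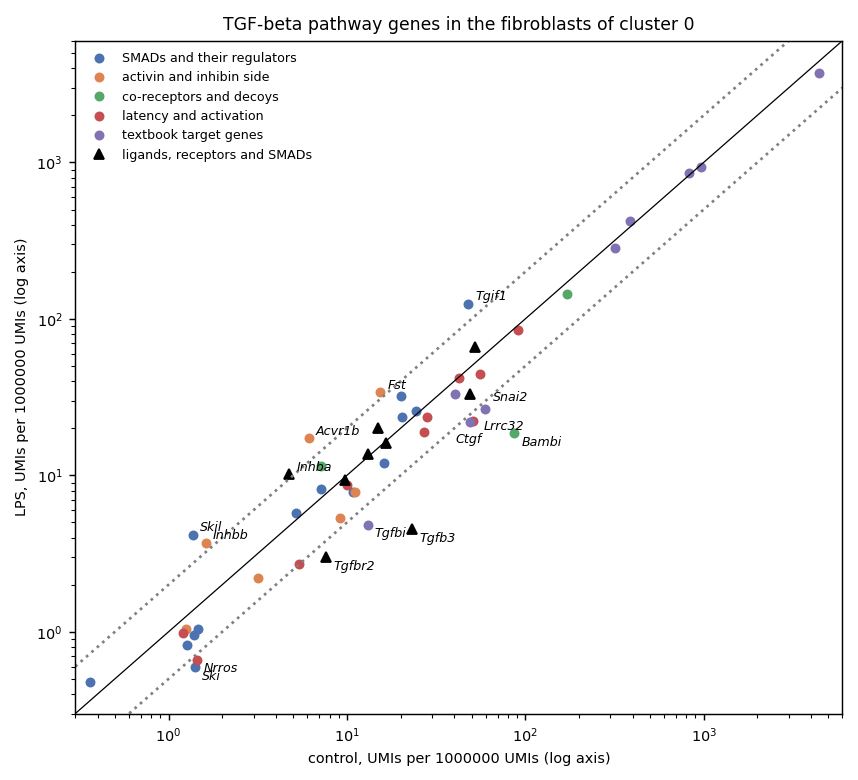
Levels in the fibroblasts of cluster 0, control (x axis) against LPS (y axis), in UMIs per 1000000 UMIs on log axes, for the 9 ligand, receptor and SMAD genes (black triangles) and other pathway genes (circles, colored by list); the solid line is equality and the dotted lines 2-fold. A listed gene that is not reported here is not drawn. Named genes lie beyond the dotted lines. Of the genes drawn, *Tgfb3* and *Bambi* lie farthest below, at ratios of 0.194 and 0.216, and *Skil* and *Acvr1b* farthest above, at 3.05 and 2.83.

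The pattern of each gene over the 20 levels of clusters 0 to 9 in both libraries was compared, on the log2(CPM + 1) scale, with that of 9895 genes with at least 500 UMIs. These points share libraries and depth, and 10 of them come from each library, so Pearson's r is a description. *Tgfb3* was most like *Pcdh18* (r = 0.95), *Dixdc1* (0.92) and *Pde3a* (0.92), and *Tgfb1* most like *Ndfip2* (0.94), *Grb2* (0.94) and *Mob1a* (0.93). *Tgfbr3* came closest to *Ankrd46* (0.92), *Twsg1* (0.92) and *Gdf11* (0.88), and *Tgfb2* to *Etfb* (0.90), *Prkar1a* (0.87) and *Otub1* (0.87). For *Tgfbr2* the nearest were AABR07000398.1 (0.89), *Pxdn* (0.89) and *Cyp1a1* (0.83), and for *Inhba* they were *Plpp3* (0.84), *Ifitm1* (0.81) and *Uap1* (0.81). *Smad3* was nearest to *Rfx5* (0.85) and *Ints6* (0.82), *Tgfbr1* to *Ddi2* (0.83), *Dmxl1* (0.78) and *Nhlrc2* (0.78), and *Smad7* to *Nnat* (0.79), *Pcdha4* (0.77) and *Rexo4* (0.75). No member was among the 3 nearest genes of another member. Between members, the largest correlation in size was that of *Tgfb1* with *Tgfbr3* (r = -0.79), whose highest levels lay in macrophages and cluster 9, respectively.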

How the data were processed

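Single-cell libraries of 1 control and 1 LPS culture were analysed. The deposited values are raw UMI counts per gene and cell barcode, whole numbers made by the authors with, per the submitters' processing notes, Cell Ranger 2.2.0, and clustered with Seurat 2.3.4 (RunCCA, FindClusters). The genome build and annotation of the counts are not given in the sources used here. The authors' cell table supplied clusters, and 10 cells without a cluster were left out. No further filter on cells was applied. No doublet caller was run, and the 8% of cells with the most UMIs were left out as an alternative.

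UMIs were summed per cluster and library in Python (3.11.15; pandas 2.3.3, scipy 1.17.1, numpy 2.4.6). Levels carry exact Poisson intervals, ratios exact conditional intervals (binomial, given the sum of the UMIs) and shares Clopper-Pearson intervals, all at 95% and for counting error only. PCR duplicates are removed by the UMIs, but cells of 1 library are no replicates. Pairs under 50 UMIs were given as values only. Cells were thinned to 3000 UMIs without replacement, which kept all 11529 control and 12606 of the 12681 LPS cells with a cluster. Factors of edgeR 4.0.16 (TMM) served as an alternative scaling. The ratios and intervals were tested on counts simulated from the Poisson model that the intervals assume. That checks the computation only, as the simulated counts hold no variation between cells or libraries.

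The genes and lists were chosen with earlier results of these data known. Named pathway genes were, of each list, up to 5 genes past 2-fold in any of clusters 0 to 6 by absolute log2 ratio, plus the gene with the most UMIs. A listed gene and a gene found by likeness are not reported here, though the counts over the lists include the first. Motif matches were read from RefSeq promoters.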

Additional observations from a re-analysis of the deposited data

Results flagged for a closer look

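*Tgfbr1* lay on opposite sides of 1 in a pair of clusters: the ratio of LPS to control was 1.64 in endothelial cluster 5 and 0.486 in the macrophages of cluster 6. Each counting interval excluded 1, and with 1 library per condition the difference between the clusters was not tested. The counts were 33 and 58 UMIs in cluster 5 and 49 and 19 in cluster 6, and scaled to the median gene the interval of cluster 6 included 1.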

How the results depend on the processing

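No paired analysis was possible because there is a single library for each condition. Of the 61 pairs compared, 3 were at least 2-fold higher in LPS; the number was 9 with no minimum of UMIs, 7 with a minimum of 20 and 6 at a fold of 1.5. At least 2-fold lower were 10, and 20 with no minimum, 4 with a minimum of 200, 16 at a fold of 1.5 and 4 after thinning to 3000 UMIs, which leaves fewer UMIs to pass the minimum. Of the 13 pairs past 2-fold, 10 stayed past it, apart from the minimum, under the 8 alternatives that give a ratio. The exceptions were *Tgfb3* in cluster 4 (log2 ratio of -0.14 after thinning) and, in cluster 6, *Tgfbr1* and *Tgfbr3*, whose log2 ratios were -0.73 and -0.81 scaled to the median gene, -0.72 and -0.80 with TMM factors and -0.68 and -0.94 after thinning. Among the pairs compared, no ratio whose interval excluded 1 changed sign. Leaving out the cells whose barcode is in both libraries was chosen after seeing the data. Over the log2 ratios of the 61 pairs and of the 9 genes in all clusters together, 49 values under an alternative moved out of their counting interval and 511 did not, and among the levels 106 did and 874 did not. The shares of cells with a UMI moved in 261 of 280 cases with no thinning or thinning to 1500 UMIs, as a share depends on depth. Depth limits *Inhba*, *Tgfbr1*, *Tgfbr2* and, in LPS, *Tgfb3* in the small clusters, and the single library per condition limits all comparisons: a difference between libraries includes any difference in their handling.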

Other observations

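Cluster 10, which has no name from the authors, held 16 control and 26 LPS cells and led in Schwann-cell markers, 577 CPM in control and 364 CPM in LPS. *Tgfb1* had 6 UMIs there in control (41.7 CPM, 15.3 to 90.8) and 36 UMIs in LPS (226 CPM, 158 to 313), a ratio of 5.41 (2.26 to 15.7), below the minimum of 50 UMIs. After thinning, 2 of 16 control and 12 of 26 LPS cells had a *Tgfb1* UMI. *Tgfbr1*, *Tgfbr2* and *Inhba* had 0 UMIs in the control cells of this cluster, where 3 UMIs would equal 20.9 CPM, and 3, 2 and 1 in the LPS cells. The 10 cells without a cluster held 1 UMI of the 9 genes, of *Tgfb2* in LPS.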
